A study of Mus musculus with 6 samples.

Results

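The Hoxa cluster and the genes for its TALE partners Meis1 and Pbx3 were examined for changes in chromatin accessibility after loss of C/EBPα and C/EBPβ. The members were Hoxa5, Hoxa7, Hoxa9, Hoxa10, Hoxa11, Hoxa13, Meis1 and Pbx3, and every listed region that overlapped a gene body extended by 50 kb on each side was counted once. This gave 9 of the 10016 regions listed for the comparison, with 4 at the Hoxa cluster, 4 at Meis1 and 1 at Pbx3. In cells without both C/EBP factors, all 4 Meis1 regions and the Pbx3 promoter were more accessible, although relative to the median change of all listed regions Pbx3 was lower and 1 Meis1 region stood at 0. The Hoxa cluster was split. A pair of regions at Hoxa10 and Hoxa11 was 7.78-fold and 4.72-fold higher. Another pair, at Hoxa9 and past Hoxa7 at the distal start of Hoxa3, was 1.77-fold and 1.82-fold lower. The paper described Hoxa9, Hoxa10 and Meis1 expression as partially down-regulated in such cells, and accessibility does not measure expression.

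Accessibility was measured by ATAC-seq, in which a transposase cuts and tags open DNA, and the reads over a region measure how open it is. The cells were mouse fetal liver cells transformed by MLL-ENL, a leukaemia fusion oncogene, and grown with IL-3. WT libraries carried the label wild-type and named no vector, and per the study's methods such cells held floxed Cebpa and Cebpb alleles. The dKO libraries were Cebpa KO and Cebpb KO and expressed GFP. There were 2 libraries per group, and the 2 libraries of dKO cells with rat C/EBPβ isoform LAP* were not analysed here. The dKO lines were the rare clones that survived deletion of both genes. The paper reported strong expression of the related factor C/EBPε in all recovered dKO clones, so dKO does not mean absence of every C/EBP factor. Genotype, GFP vector, clone and C/EBPε expression cannot be told apart in this comparison. Each value is the authors' mean over a group on a log2 scale, without an error between libraries. The table named only regions that had passed the authors' corrected P-value of 0.05, and no test was added.

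HOXA genes encode homeodomain transcription factors that are active in haematopoietic progenitors and are turned down during myeloid maturation. MLL fusion proteins keep the posterior part of the cluster, above all HOXA9, switched on, and also activate MEIS1. MEIS and PBX proteins are TALE homeodomain factors that bind DNA together with HOXA9, and MEIS1 and PBX3 are its best known partners in this leukaemia.

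At the deleted genes, the Cebpa region went from 9.99 in WT to -0.15 in dKO on the log2 scale, and the Cebpb regions went from 8.60 to 3.37 and from 7.38 to -0.15, as the labels require. The value -0.15 was the lowest in either group and was taken as 1 read in each library. On this scale 3 reads per library corresponded to 1.43, and all 9 member regions lay above it in both groups. The read numbers given for each region are estimates from this scale, and their counting error does not cover the spread between cultures.

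The Hoxa regions were distinguished by where they lay. Stretches of the Hoxa9, Hoxa10 and Hoxa11 regions are shown on the plus strand of mm10, opposite to Hoxa transcription. Accessibility was given per whole region, so no stretch can be said to carry the change. Capitals mark a match to the C/EBP motif in the first and second sequence and CG dinucleotides in the third.
Hoxa9 region, chr6:52230435-52230634: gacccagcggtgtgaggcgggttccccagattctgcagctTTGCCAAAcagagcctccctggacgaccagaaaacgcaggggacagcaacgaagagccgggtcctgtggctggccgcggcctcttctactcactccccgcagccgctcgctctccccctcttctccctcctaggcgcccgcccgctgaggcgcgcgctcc
Hoxa10 upstream region, chr6:52241559-52241858: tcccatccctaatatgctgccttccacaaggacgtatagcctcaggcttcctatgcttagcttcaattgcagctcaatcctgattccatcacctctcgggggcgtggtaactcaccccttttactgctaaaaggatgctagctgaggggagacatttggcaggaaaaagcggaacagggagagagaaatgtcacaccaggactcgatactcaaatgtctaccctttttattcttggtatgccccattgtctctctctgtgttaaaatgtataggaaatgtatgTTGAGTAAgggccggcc
Stretch directly upstream of the Hoxa11 start, chr6:52245811-52245968: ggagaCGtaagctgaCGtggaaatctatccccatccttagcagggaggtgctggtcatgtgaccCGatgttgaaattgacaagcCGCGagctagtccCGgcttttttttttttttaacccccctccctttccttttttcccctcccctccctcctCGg

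The largest change was upstream of Hoxa10, which encodes a HOX factor that promotes progenitor expansion. The region at chr6:52241517-52241858 had 6.19 normalised reads in WT and 48.2 in dKO, a log2 change of 2.96 from 2.63 to 5.59. It was one of the least open listed regions in WT, at percentile 8.6, and reached percentile 49.9 in dKO. About 14 reads stood behind the WT mean and 107 behind the dKO mean, which gives a counting error of 0.41 on the log2 scale. The region is intergenic, between Hoxa10 and Hoxa11. Its edge lay 663 bp from the outermost Hoxa10 start site, and its centre lay 6.7 kb upstream of the RefSeq Select start, which begins the long coding transcript. Of all listed regions higher in dKO, 89.6% had a smaller change. This rank takes in all levels, and with a WT mean of 2.5 to 2.75 no listed change was under 1.75.

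At Hoxa11, a posterior Hox gene best known from limb, kidney and uterus development, the region was wider and more open. It spanned chr6:52245660-52246798, or 1139 bp, and rose from 62.2 to 294 normalised reads. The log2 change was 2.24, from 5.96 to 8.20, with about 138 and 653 reads and a counting error of 0.14. This region covered the Hoxa11 start site, the 5′ UTR and part of its coding sequence. It also covered exons of Hoxa11os, the antisense transcript that starts within Hoxa11, and the reads do not tell the genes apart. Its GC content was 57.7%, with 62 CG dinucleotides, against a median GC content of 49.0% over all listed regions. None of the motifs searched was present in it.

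Hoxa9, the Hoxa gene most closely tied to MLL-fusion leukaemia, had its listed region at chr6:52230435-52230912. Accessibility was 425 normalised reads in WT and 241 in dKO and fell by 0.82 on the log2 scale, from 8.73 to 7.91. About 942 and 534 reads gave a counting error of 0.08. The region lay 416 bp inside the outermost annotated transcript of Hoxa9, and 3.3 kb upstream of the RefSeq Select coding start. It overlapped an exon of a transcript annotated as a retained intron, but no coding sequence or UTR. It was also only 285 bp from the 3′ end of Hoxa10, whose body contained no listed region. With 66.9% GC it was among the most open listed regions in both groups, at percentile 98.8 in WT and 93.8 in dKO. Of all regions lower in dKO, whatever their level, 4.0% had a smaller decrease. The size was ordinary for this level. Among falls with a WT mean of 8.5 to 8.75, the fullest bin was its own, -1.0 to -0.75, with 11 regions.

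The other decrease was beyond the 3′ end of Hoxa7, a Hox gene also expressed in MLL-rearranged leukaemia. The region at chr6:52213059-52213620 had 405 normalised reads in WT and 223 in dKO and fell by 0.86 on the log2 scale, from 8.66 to 7.80. About 898 and 495 reads gave a counting error of 0.08. It lay 871 bp past the Hoxa7 body and covered the distal start and 5′ UTR of Hoxa3, an anterior Hox gene, with exons of Gm28308 and the antisense transcript Hoxaas3. By nearest start site this region belongs to Hoxa3 and Gm28308 and not to Hoxa7. It is called the Hoxa7 region here only after the nearest member gene. Its WT level was close to that of the Hoxa9 region, at percentile 98.7.

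Hoxa5 and Hoxa13 contained no listed region and had no listed change of their own. The nearest to Hoxa5 was the region past Hoxa7, 8472 bp away, and the nearest to Hoxa13 was the Hoxa11 region, 10896 bp away. Since the 6 Hoxa windows overlap, the same 4 regions fell within 50 kb of each of the 6 genes. The direction changed once along the cluster, in the 10.6 kb between the Hoxa9 region and the Hoxa10 upstream region. The lower pair was 16.8 kb apart and the higher pair 3.8 kb. In the higher pair the WT means of 2.63 and 5.96 were below those of the lower pair, 8.73 and 8.66. In dKO the Hoxa11 region, at 8.20, exceeded the Hoxa9 region, at 7.91, although levels are not divided by region width.

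**Figure D1:**
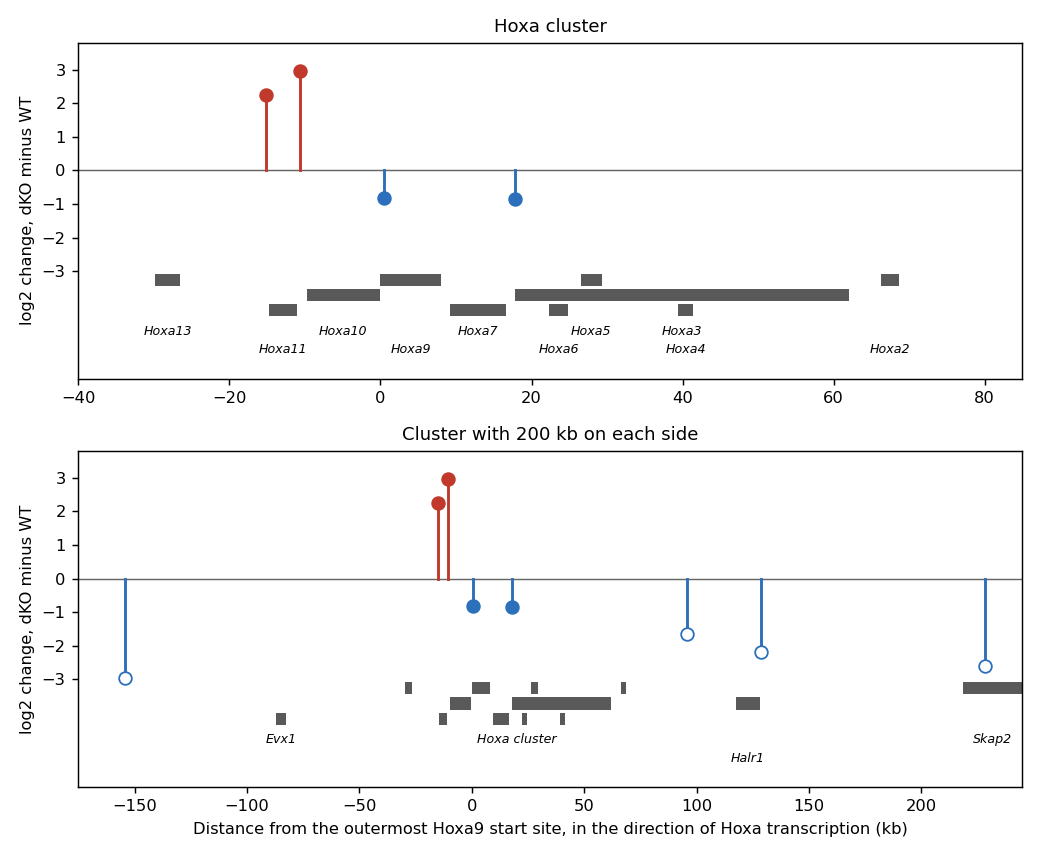
Change in accessibility (log2, dKO minus WT) of each listed region against its distance in kb from the outermost Hoxa9 start site, in the direction of Hoxa transcription, with gene bodies as grey bars. Filled points are the 4 regions of the cluster, with changes of 2.24, 2.96, -0.82 and -0.86 from left to right, and open points are the 4 further regions within 200 kb of the member genes, from -1.65 to -2.95.

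Meis1 differed from the Hoxa cluster in that its regions were all higher in dKO. The 3 regions in the gene body were intronic and the stretches of the pair with a PU.1 motif are shown on the plus strand of mm10, opposite to Meis1 transcription. PU.1 is the ETS factor of the myeloid lineage. Capitals mark matches to the PU.1 motif, which reads ACTTCCTC where it lies on the other strand, and to the MEIS motif TGACAG.
Meis1 intron, 94.0 kb downstream, chr11:18924864-18925163: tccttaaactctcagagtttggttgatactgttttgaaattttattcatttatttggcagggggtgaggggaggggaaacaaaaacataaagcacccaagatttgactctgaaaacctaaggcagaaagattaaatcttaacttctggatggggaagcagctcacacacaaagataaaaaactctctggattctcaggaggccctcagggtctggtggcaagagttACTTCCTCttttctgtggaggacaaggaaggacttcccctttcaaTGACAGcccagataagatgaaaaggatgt
Meis1 intron, 48.8 kb downstream, chr11:18969997-18970296: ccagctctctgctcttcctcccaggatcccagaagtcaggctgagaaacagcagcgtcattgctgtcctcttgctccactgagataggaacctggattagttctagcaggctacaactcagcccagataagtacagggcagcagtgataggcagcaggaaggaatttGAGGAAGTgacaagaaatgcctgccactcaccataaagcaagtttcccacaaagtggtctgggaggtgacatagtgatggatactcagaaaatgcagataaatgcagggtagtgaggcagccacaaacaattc

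The most distal intronic region, chr11:18924677-18925352, lay 94.0 kb downstream of the start site and rose from 108 to 212 normalised reads. Its log2 means of 6.75 and 7.73 gave a change of 0.98, with a counting error of 0.11. The middle one, chr11:18948660-18949477, lay 69.9 kb downstream and rose from 40.8 to 109 normalised reads. Its log2 change was 1.42, from 5.35 to 6.77, with a counting error of 0.18. The third, chr11:18969848-18970447, lay 48.8 kb downstream and had the highest levels of the gene, 133 normalised reads in WT and 307 in dKO. The log2 change there was 1.20, from 7.06 to 8.26, with a counting error of 0.10. The 3 changes lay within 0.98 to 1.42.

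Upstream of Meis1, an intergenic region at chr11:19026871-19027527 rose from 9.71 to 32 normalised reads. This was the largest log2 change at Meis1, 1.72 from 3.28 to 5.00, and the one with the fewest reads, about 22 in WT and 71 in dKO, so that its counting error was 0.35. It was the single member region that did not pass a corrected P-value of 0.01. Its centre lay 8.2 kb from the start site. The sequence was GC-rich, at 62.9% with 45 CG dinucleotides, whereas the intronic regions had 46.4% to 48.8% GC. No listed region covered the Meis1 promoter itself, and none of the motifs was present in the upstream region.

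Pbx3, which encodes a PBX factor that stabilises HOXA9 and MEIS1 complexes, had 1 listed region in a gene of 201.7 kb. The region at chr2:34372409-34373357 covered the outermost start site with UTR and coding exon sequence, and its centre lay 838 bp upstream of the RefSeq Select start. It had 391 normalised reads in WT and 653 in dKO, which was the most of any member region in dKO. The log2 change was 0.74, from 8.61 to 9.35, the smallest of the 9, and about 867 and 1448 reads gave a counting error of 0.06. It was a CpG-rich promoter with 67.5% GC and 86 CG dinucleotides in 949 bp. At percentile 98.6 in WT it was open to begin with, and 5.4% of the regions higher in dKO had a smaller change. Among rises with a WT mean of 8.5 to 8.75, the fullest bin was its own, 0.5 to 0.75, with 19 regions.

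**Figure D2:**
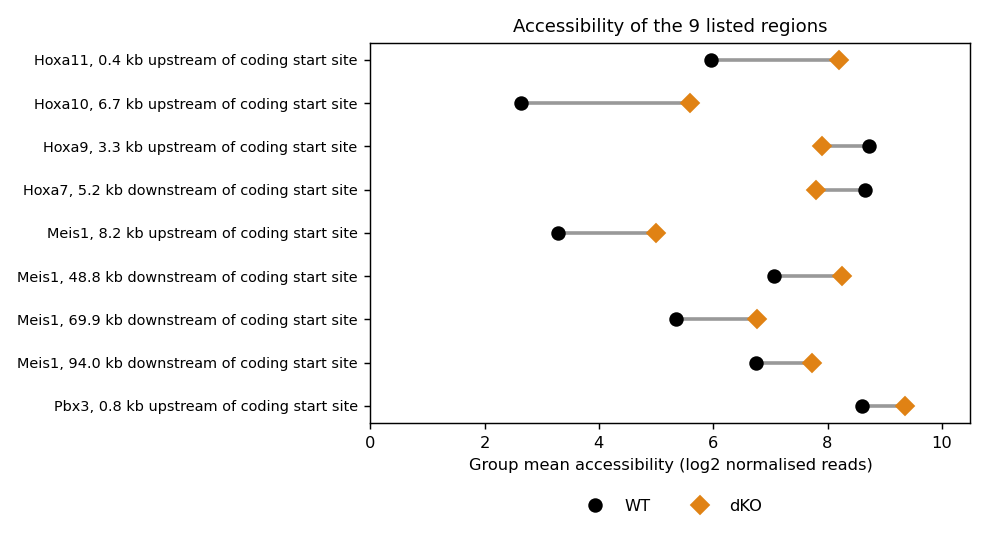
Group means of the 9 member regions in WT (circles) and dKO (diamonds) as log2 normalised reads, with the position of each region's centre relative to the RefSeq Select start of the nearest member gene. The Hoxa9 and Hoxa7 regions moved down from 8.73 and 8.66 in WT, and the other 7 moved up, with the longest line at Hoxa10 from 2.63 to 5.59.

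**Figure D3:**
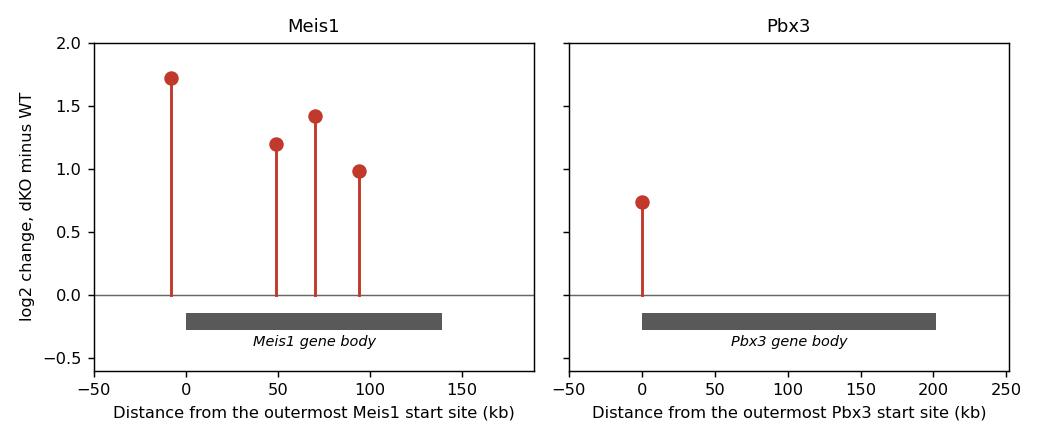
Change in accessibility (log2, dKO minus WT) at Meis1 and Pbx3 against distance in kb from the outermost start site, with the gene body as a grey bar. The 4 Meis1 regions had changes of 1.72, 1.20, 1.42 and 0.98 from left to right, and the single Pbx3 region, at the start site, had 0.74, or -0.24 relative to the median of all listed regions.

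Across the members, 7 of 9 regions were higher in dKO, beside 60.3% of all 10016 listed regions. Below a WT mean of 3.75 on the log2 scale, every listed region was higher in dKO. The Hoxa10 upstream and Meis1 upstream regions, at 2.63 and 3.28, lay in this range, where the list held rises only. So did the largest rises named below at Hoxb, Hoxd, Pknox2, Cdk9 and Kit. A change of at least 2-fold was seen at 5 of 9, beside 85.5% of all listed regions. The median log2 change was 1.20 for the members, 1.31 for Meis1 and 0.98 for all listed regions, which mix rises and falls. Of all regions higher in dKO, 16.4%, 41.0% and 28.1% had a smaller change than the Meis1 regions at 94.0, 69.9 and 48.8 kb. For the Meis1 upstream region the share was 56.5%. The Hoxa median of 0.71 lay between its lower and higher pair and described neither. The balance differed between chromosomes: 49.5% of listed regions were higher on chromosome 6, which carries the Hoxa cluster, 62.6% on chromosome 11, which carries Meis1, and 55.6% on chromosome 2, which carries Pbx3. Counted per length, the member windows held 12.9 listed regions per Mb, with 25.1 at the Hoxa cluster, 16.7 at Meis1 and 3.31 at Pbx3. The value was 3.8 per Mb over the genome and 5.13 per Mb over the windows of all protein-coding genes. Of 21755 protein-coding genes, 4.39% had 4 or more listed regions in their window, as each of the Hoxa members and Meis1 did.

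The listed regions had a median change of 0.98, and subtracting it left different directions. Relative to this median, the Hoxa10 and Hoxa11 regions stood at 1.98 and 1.26 and the Hoxa9 and Hoxa7 regions at -1.80 and -1.84. The Meis1 regions stood at 0.00, 0.44, 0.22 and 0.74, in the order above with the upstream region last. Pbx3 turned to -0.24. The direction of the Hoxa regions therefore did not depend on this choice, while Pbx3 and 1 Meis1 region were not higher relative to the median. Unchanged regions were not listed, so this median is not a median over all open chromatin.

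**Figure D4:**
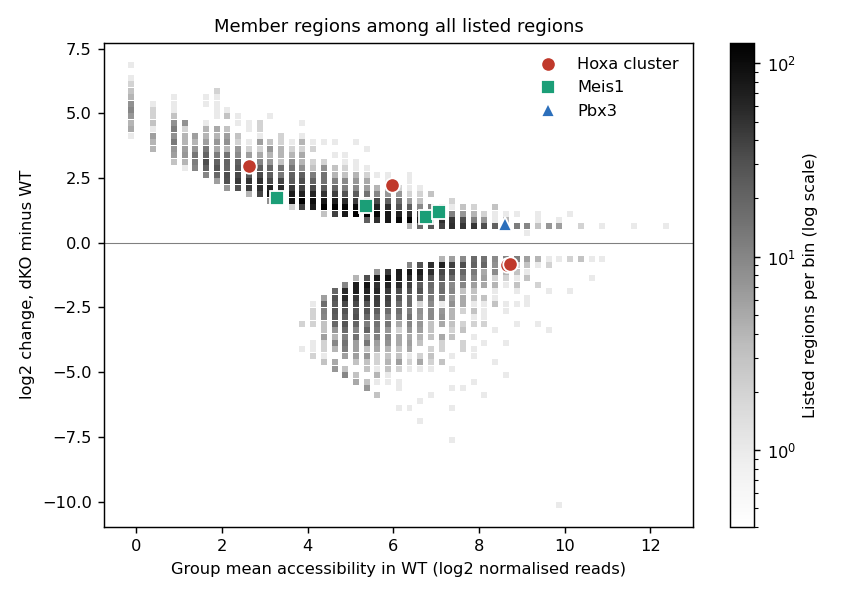
Change in accessibility (log2, dKO minus WT) against the WT mean (log2 normalised reads) for all 10016 listed regions, binned in grey with the number per bin on a log scale, and for the 9 member regions in colour. The Hoxa9 and Hoxa7 regions and the Pbx3 promoter sat at the right, with WT means from 8.61 to 8.73 and changes under 1 in size, and the Hoxa10 region sat at the left with a change of 2.96.

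Motifs were searched on both strands as TTGCNNAA or TTACNNAA for C/EBP, TGACTCA or TGAGTCA for AP-1, GAGGAAGT for PU.1, AACCACA for RUNX, TGACAG for MEIS and TGATTTAT or TGATTGAT for PBX-HOX, and by core consensus for CTCF. In the central 200 bp, none of the 9 member regions held a C/EBP match, which 28.4% of all listed regions did, with 40.7% of those lower and 20.2% of those higher in dKO. Over whole regions, 4 of 9 held one, beside 42.9% of all listed regions, and these were the Hoxa9 and Hoxa10 regions and the Meis1 regions at 69.9 and 48.8 kb. In the Hoxa9 and Hoxa10 sequences shown above the match reads TTGCCAAA and TTGAGTAA, the latter on the minus strand. PU.1 matches lay in the centre of 2 of 9, both in Meis1 introns, beside 9.17% of all listed regions. The MEIS hexamer lay in the centre of 1 of 9 and anywhere in 4 of 9, beside 18.5% and 34.0%. A RUNX match was found in 1 of 9 whole regions, beside 19.3% of all listed regions. AP-1 matches were found in 0 of 9 whole regions, beside 25.3%, and PBX-HOX and CTCF matches in 0 of 9, beside 3.63% and 1.73%. Among 32585 RefSeq promoters of 300 bp, 18.5% held a C/EBP match, 3.22% a PU.1 match and 18.9% the MEIS hexamer. These matches are letters in a window and do not show binding.

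The related lists below were counted without the 9 member regions. The Hoxb cluster, which is also expressed in progenitors, had 4 listed regions within 50 kb of its 10 genes, and all were higher in dKO with a median of 1.64, beside 60.3% higher and a median of 0.98 among all listed regions. Hoxb13 had 3 of them, with changes from 1.54 to 1.69. The Hoxb region with the largest change, at chr11:96306881-96307190 near Hoxb5os, went from 1.54 to 4.37 on the log2 scale. The Hoxd cluster had 1 region, nearest to Hoxd10, which went from 3.50 to 5.21, and the 9 Hoxc genes had none. For 5 further genes of the Hoxa locus, Hoxa2, Hoxa3, Hoxa4, Hoxa6 and Evx1, 1 region was listed in addition to the member regions, some of which also lie at these genes, as at the distal start of Hoxa3. This region was within 50 kb of Hoxa2 and Hoxa3, 29.6 kb from the Hoxa2 start site, and lower in dKO by a log2 change of -1.65.

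Other TALE homeobox genes showed no single direction. Of 8 genes, 6 had listed regions, 11 in all, of which 6 were higher and 5 lower, with a median log2 change of 1.05, beside 47.5% of protein-coding genes with a listed region and 60.3% of listed regions higher. Both the largest rise and the largest fall lay in the window of Pknox2, which encodes a PBX-binding TALE factor of the PREP family. The region at chr9:37139575-37139857 went from 3.09 to 5.44 on the log2 scale, a change of 2.35. Tgif1, a TALE repressor, had 2 higher regions with changes of 1.61 and 1.70, and its paralogue Tgif2 had 1 lower region, at -1.96. The Pknox2 region with the largest fall, chr9:37021303-37021809, went from 5.56 to 2.94 and lay 125.9 kb from the start site. The nearest start sites to this pair were those of Gm48717 for the rise and n-R5s82 for the fall. Meis2 and Pbx2 had no listed region.

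Among 12 genes for MLL fusion partners and cofactors, 8 had listed regions, with 15 higher and 7 lower in dKO and a median of 1.30, beside the same 47.5% of genes and 60.3% of regions. Dot1l, the H3K79 methyltransferase recruited by MLL fusions, had 6 regions, 5 of them higher. Aff1, a fusion partner and elongation factor scaffold, had 4 higher and 4 lower. The Cdk9 window held both the largest rise, from 1.07 to 4.74, and the largest fall, from 4.89 to 2.01, but the nearest start sites were those of Sh2d3c and Fpgs, and the WT value of 1.07 was under the level of 3 reads per library. Kmt2a, Mllt1, Mllt3 and Men1 had none.

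**Figure D5:**
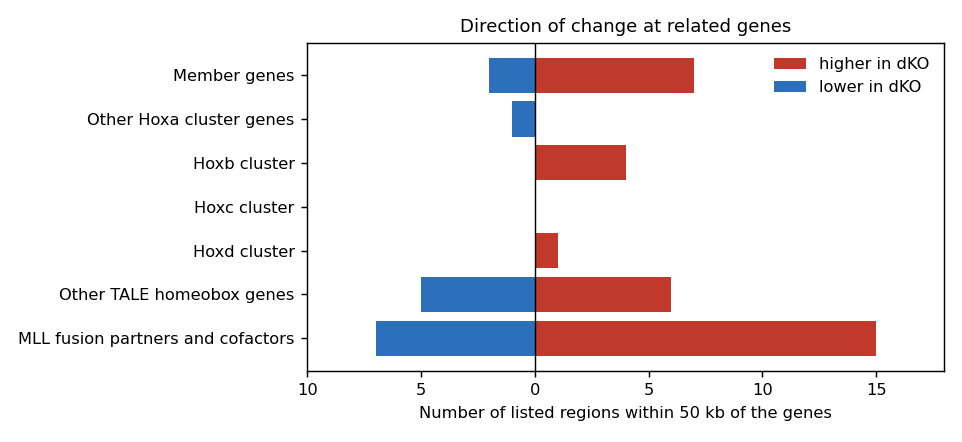
Number of listed regions within 50 kb of the genes of each list, with regions higher in dKO to the right of 0 and lower ones to the left. Member genes had 7 higher and 2 lower, the Hoxb cluster 4 and 0, other TALE genes 6 and 5, and MLL fusion partners and cofactors 15 and 7.

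Markers of the labelled myeloid cells moved in the same comparison. Of 6 progenitor and myeloid marker genes, 5 had listed regions, beside 47.5% of all protein-coding genes, and 11 of these regions were higher and 1 lower in dKO, beside 60.3% higher among all listed regions. The largest rise was at Kit, the stem cell factor receptor gene, from 1.26 to 4.52 on the log2 scale, with the WT mean under the level of 3 reads per library. Itgam, the gene for CD11b, had 4 higher regions with changes from 0.71 to 2.70, and Csf1r had 3 from 1.08 to 2.55. Mpo had 1 higher at 0.95 and 1 lower at -1.13. The paper reported reduced CD11b staining and decreased Csf1r expression in dKO cells, and accessibility does not measure expression. The lymphoid gene Cd3e and the erythroid genes Gata1 and Klf1 had no listed region, which does not give their level. The part of a shift in cell state in the member regions was not tested.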

How the data were processed

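ATAC-seq libraries of MLL-ENL–transformed cells were prepared by the authors from sorted cells. Per the labels and the study's methods, reads were processed with PiGx, aligned to mm10 with Bowtie2, peaks were called with MACS2 and groups were compared with DiffBind 2.14.0. The handling of duplicates and of the transposase offset was not given in the sources used here, and duplicates would raise counts of strongly amplified regions. The authors deposited log2 means of normalised reads over both groups, over WT and over dKO, a log2 fold change, a p-value and a corrected p-value per region. The deposited fold change and p-value columns hold the authors' comparison and were not reported. The corrected p-value was read only to check that no listed region exceeded 0.05 and for a stricter limit of 0.01. Both processed files were identical, giving 1 distinct table.

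Change was computed as the dKO minus the WT log2 mean. Sequencing depth per library and the spread between libraries are unknown, because each group has 1 mean. The lowest value, -0.15, was taken as 1 read in each of 2 libraries. Genes came from GENCODE M21, and sequences and Select transcripts from RefSeq GRCm38.p6 (mm10). The named genes were the 8 members and, in each related list, those with the largest rise and fall, and further genes were chosen after their values were seen. Members and lists were chosen with earlier results of these data known. Window searches were tested on simulated data. Analyses used Python 3.11.15, pandas 2.3.3 and samtools 1.23.1. Alternatives were other window sizes, assignment by nearest start site, stricter limits, centring and motif search over whole regions. The planned test per library was not run, and 3 genes of the related lists are not reported here.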

Additional observations from a re-analysis of the deposited data

How the results depend on the processing

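No paired analysis was possible because only 1 mean per group was given, and for the same reason no replicate could be left out and no count model fitted. Of 52 alternative values, 33 were classed as similar to the reported ones, 16 as moved and 3 as changed in sign. The similar class included 13 listed regions in place of 9 with windows of 200 kb. It also included 5 higher regions in place of 7 after centring, whereas a median of 1.09 in place of 1.20 was classed as moved. Assigning regions by nearest start site left 5 of the 9 regions, 4 higher and 1 lower. The intronic Meis1 regions and the region past Hoxa7 were the ones lost. A change of at least 1 on the log2 scale left 5 regions, and 0 of them lower, since both lower Hoxa regions were under 2-fold. Windows of 100 kb took the lower regions from 2 to 4, moved the median of all members from 1.20 to 0.98 and turned that of the Hoxa cluster from 0.71 to -0.84, and windows of 200 kb gave 6 lower regions. Windows of 10 kb held the same number of regions, 9, at 19.6 per Mb. With a corrected P-value under 0.01 the median was 1.09 for all members and 1.20 for Meis1. Subtracting the median of all listed regions, 0.98, gave 0.22 for all members, 0.33 for Meis1, -0.27 for the Hoxa cluster and -0.24 for Pbx3. Searching whole regions instead of the central 200 bp raised C/EBP matches from 0 to 4, RUNX from 0 to 1 and MEIS from 1 to 4, since more sequence was searched. The number of reads limits the Hoxa10 upstream and Meis1 upstream regions most, with about 14 and 22 reads in WT.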

Other observations

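Outside the 50 kb windows, the Hoxa locus was flanked by 4 further listed regions within 200 kb of the member genes, and all 4 were lower in dKO, beside 246 of 487 listed regions on chromosome 6 and 3981 of 10016 overall. They were looked up after the member values were seen. Within 200 kb the Hoxa locus thus had 2 higher and 6 lower regions, whereas no further region was listed around Meis1 or Pbx3. The closest, at chr6:52135074-52135478, is the region described above at Hoxa2 and Hoxa3. Its centre lay 69.3 kb downstream of the Hoxa5 start site and it had 45.3 normalised reads in WT and 14.4 in dKO. A region 485 bp from the start of Halr1, a noncoding RNA gene at the anterior end of the cluster, had 41.4 and 9. Farther out, a region in an intron of Skap2, a gene for a cytoplasmic adaptor protein, had 35.3 and 5.86. On the posterior side a single intergenic region at chr6:52385044-52385381, with its centre 124.3 kb upstream of the Hoxa13 start site, had 38.3 and 4.96 and was 7.73-fold lower. The dKO means of these regions rest on about 11 to 32 reads, with counting errors of 0.29 to 0.46 on the log2 scale.

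A C/EBP match lay in the central 200 bp of 3 of these 4 regions, beside 40.7% of all listed regions lower in dKO. It lay there in 0 of the 9 member regions, of which 7 were higher, beside 20.2% of all listed regions higher in dKO. With 4 regions looked up after their values were seen, these counts are a description only. The stretch of the region near Halr1 is shown on the plus strand of mm10, with C/EBP and AP-1 matches in capitals.
Region near Halr1, chr6:52102214-52102413: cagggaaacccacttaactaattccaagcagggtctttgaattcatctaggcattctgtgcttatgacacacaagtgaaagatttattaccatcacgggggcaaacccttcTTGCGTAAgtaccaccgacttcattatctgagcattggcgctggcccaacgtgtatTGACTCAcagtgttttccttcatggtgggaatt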
